A study of Mus musculus with 20 samples.

Results

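The genes described here are 40 genes of the actin contractile apparatus and of smooth muscle, followed across clonal mouse fibroblast lines with the line Swiss 19 in view. They were chosen by name, as smooth muscle actin and myosin genes, their binding proteins and their regulators. The choice was made with earlier results of these data known. Shares of members set beside those of all genes are therefore descriptions only. All 40 were found among the 18193 genes measured, through 91 probe sets that the platform annotation pairs with a single gene symbol. Where a gene had several probe sets, the brightest by its mean over the 20 arrays stands for it.

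The cells were clones of Swiss 3T3, an immortalized mouse embryo fibroblast strain, and the study compared clones able to become fat cells with clones unable to do so. Per the labels, Swiss 19 is preadipose, as are Swiss 9, Swiss 8 and Swiss 2, whereas Swiss 22, Swiss 5 and Swiss 3 are non-adipogenic. Swiss 19 has 2 arrays and each of the other 6 lines has 3, which makes 20 arrays. All lines grew untreated with 10% bovine serum, under conditions that leave them undifferentiated, and were harvested before growth arrest. Each line is 1 clone, so a difference of Swiss 19 from the others is a difference of that clone. Whether a line's arrays stand for separate cultures is not stated in the labels. P-values whose error comes from arrays therefore cover array-to-array scatter alone, and that scatter may be technical.

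Smooth muscle contracts when myosin II filaments pull on actin filaments, after myosin light chain kinase has phosphorylated the regulatory light chain. Fibroblasts hold the non-muscle forms of the same machinery in stress fibres, which end at focal adhesions, and myofibroblasts add smooth muscle alpha-actin to them. Many of these genes are known targets of serum response factor, which binds a DNA element called the CArG box together with coactivators of the myocardin family. Unpolymerized actin holds the myocardin-related coactivators in the cytoplasm, which couples the genes to the state of the actin filaments.

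The CArG box was searched in the RefSeq promoters of the members (build GRCm38.p6), from 250 bases before to 50 bases after each gene's start. The box was read in its exact form, a C pair, 6 letters that are A or T and a G pair, which is the same form on both strands. Of the 40 members, 35 were in the promoter table, and Actg2, Tagln, Myh11, Csrp2 and Myocd were not. The exact box stood in 9 of the 35 members (25.7%), against 1.81% of 27025 genes of the table. With 1 letter off allowed, 12 of 35 members (34.3%) held it, against 11.3% of all genes. Since known targets of serum response factor are in the list, these shares describe the list and not these cells. The windows below are shown because these 8 promoters include members that were highest in Swiss 19 and members that were not. Capitals mark the box, and each window is written on the gene's own strand.
Fhl1, chrX:56779556-56779615, plus strand: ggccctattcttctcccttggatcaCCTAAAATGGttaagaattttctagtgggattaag
Myl9, chr2:156775278-156775337, plus strand: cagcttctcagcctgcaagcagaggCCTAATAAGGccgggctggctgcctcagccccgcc
Vcl, chr14:20929148-20929205, plus strand: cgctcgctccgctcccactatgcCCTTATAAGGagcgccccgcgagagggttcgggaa
Cnn2, chr10:79988519-79988578, plus strand: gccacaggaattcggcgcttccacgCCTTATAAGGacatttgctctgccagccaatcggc
Myl6, chr10:128493025-128493084, minus strand: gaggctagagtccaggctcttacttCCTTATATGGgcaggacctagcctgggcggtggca
Acta1, chr8:123894814-123894873, minus strand: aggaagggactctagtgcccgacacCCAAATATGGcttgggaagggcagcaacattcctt
Actc1, chr2:114052888-114052947, minus strand: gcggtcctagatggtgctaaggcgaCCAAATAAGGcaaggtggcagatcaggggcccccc
Acta2, chr19:34255423-34255482, minus strand: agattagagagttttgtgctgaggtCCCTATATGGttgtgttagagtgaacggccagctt

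The first 7 windows hold exact boxes, between 37 bases (Actc1) and 217 bases (Vcl) before the start. The Acta2 window holds a box with 1 letter off, 74 bases before the start. Fhl2 and Ldb3 are the other 2 members with an exact box. A match describes the letters of this window and shows no binding.

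Levels are given as scaled intensity, the deposited intensity after linear scaling of each array to a trimmed mean of 500. Levels of different probe sets are not comparable, so levels are compared between lines and not between genes. A gene counts as above background in a line when its mean exceeds that of unspiked bacterial control probe sets, which was 76.5 in Swiss 19 and up to 143.5 in Swiss 2. Differences are on quantile-normalized log2(intensity + 32) values, which understates the change of dim genes. The arrays differed in brightness, with a mean deposited intensity from 26.9 (Swiss 2) to 160.2 (Swiss 19). By their hybridization spikes, 9 arrays were bright (Swiss 19, Swiss 5, Swiss 22 and 1 of Swiss 3) and 11 dim. Swiss 19 is therefore compared with Swiss 2, Swiss 8 and Swiss 9, of its own class but on dim arrays, and with Swiss 5 and Swiss 22, of the other class and with spikes at a like level. Their mean deposited intensity was 135.1 to 149.7 in Swiss 22 and 144.8 and 160.2 in Swiss 19, but only 96.1 to 103.4 in Swiss 5. The nearest array belonged to the same line for 19 of the 20. Fibroblast markers were above background in every line, at least 9 of 10. Skeletal muscle markers were above background for 2 or 3 of 10 in each line, with Ckm and Ttn among them in every line. Of the regulators of skeletal muscle, Myog was above background in none. Myod1 was above it in Swiss 2 (181.3), Swiss 3 (177.5), Swiss 5 (105.9) and Swiss 22 (96.8). It was not in Swiss 8 (65.5), Swiss 9 (59.9) and Swiss 19 (57.3). Myod1 was not called among the lines (limma moderated F test, adjusted p = 0.652).

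**Figure D1:**
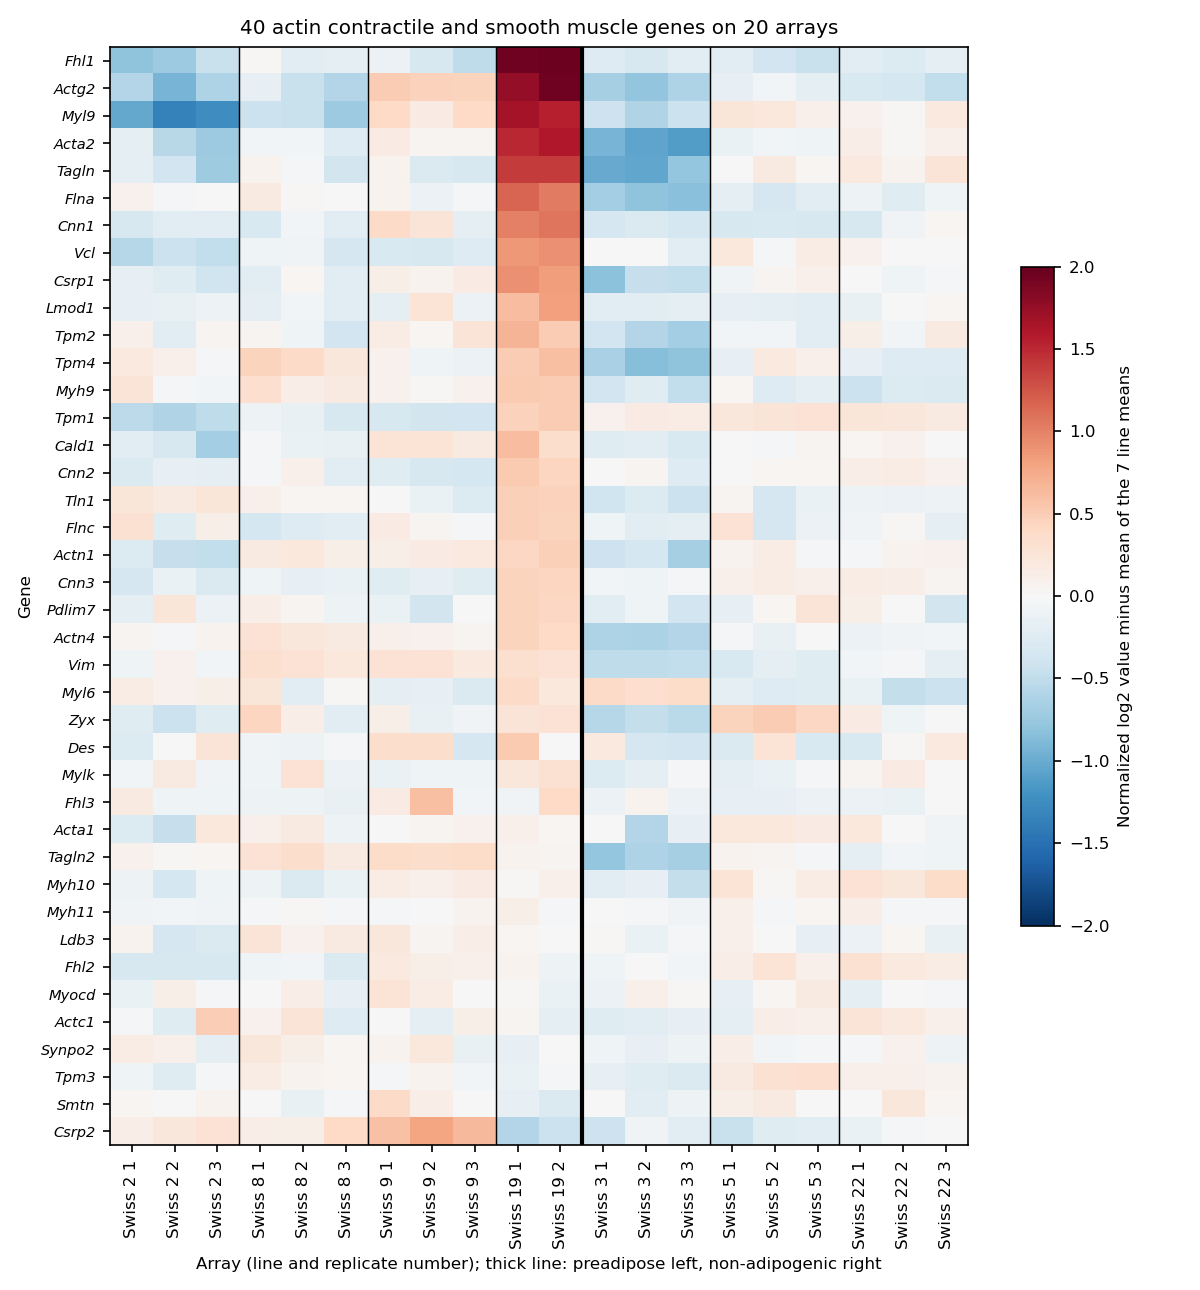
Normalized log2 values of the 40 genes (rows) on the 20 arrays (columns), each shown as the difference from the mean of the 7 line means, with red for higher and blue for lower values. The 2 Swiss 19 columns are the darkest red for the upper genes, and the Swiss 3 columns are blue for many of the same genes.

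Swiss 19 stood highest for most of the contractile genes and Swiss 3 stood lowest. In RNA of whole cultures, fewer cells with a transcript and less of it per cell cannot be told apart. Of the 40 members, 30 were above background in all 7 lines, 9 in 1 to 6 lines and Myh11 in none. Among those 30, Swiss 19 had the highest normalized line mean for 21 (70%), against 15.1% of the 10243 genes above background in all lines. Swiss 3 had the lowest for 19 of the 30 (63.3%), against 23.0%. Both Swiss 19 arrays lay above all 18 other arrays for 22 of the 40 members, where 3% of all genes did so, and below them for 0, where 2.18% did. On scaled intensity the count above was 19, because Tpm4, Cald1 and Actn4 overlapped with other lines there. When arrays of a line set the error, 31 of 40 members differed among the lines (limma moderated F test, adjusted p below 0.05), where 35.8% of all genes did.

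**Figure D2:**
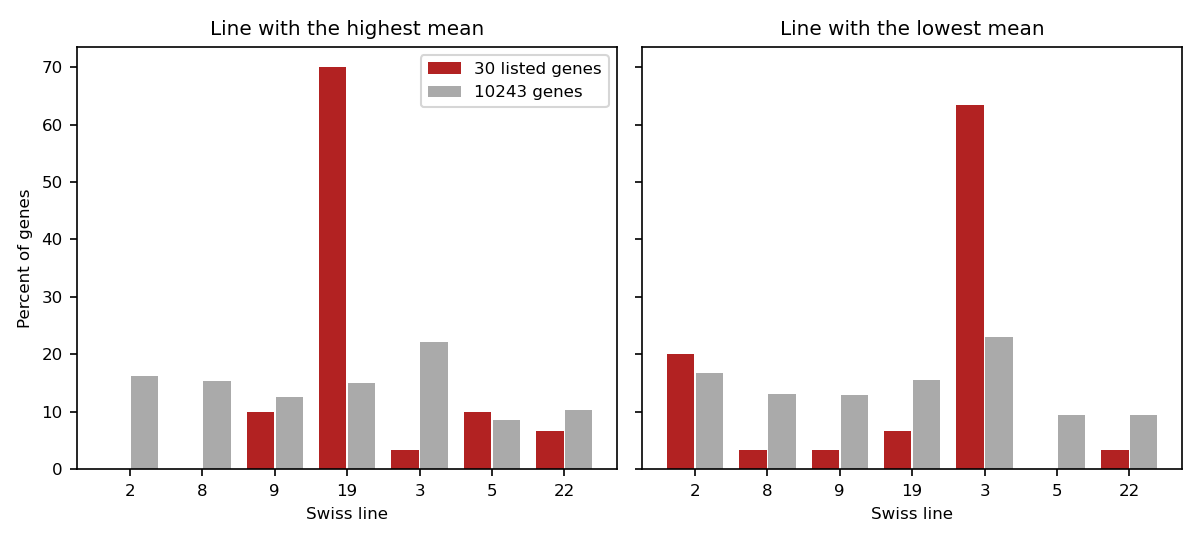
Share of genes (percent, vertical axis) for which each Swiss line (horizontal axis) had the highest (left) or the lowest (right) normalized mean, for the 30 listed genes above background in all lines (red) and all 10243 such genes (grey). The red bars peak at Swiss 19 on the left, at 70%, and at Swiss 3 on the right, at 63.3%.

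Of the actins, both smooth muscle forms were highest in Swiss 19, while the skeletal and the cardiac form were not. Acta2 encodes smooth muscle alpha-actin, the usual marker of myofibroblasts. Its scaled intensity was 71349.6 and 72325 in Swiss 19. It was 33731, 24029 and 22830.3 in Swiss 2, 37828, 37582 and 33053 in Swiss 8, and 44901, 42105 and 43670.1 in Swiss 9. In the non-adipogenic lines it was 18588, 16905 and 15803 in Swiss 3, 33986, 34783 and 33447 in Swiss 5, and 36297, 34625 and 37358 in Swiss 22. Both Swiss 19 arrays were above, and all Swiss 3 arrays below, every other array. The mean of Swiss 19 was 2.22-fold that of the other 6 lines (32307 ± 9163, SD, n = 6 lines). Before scaling, Acta2 read 12542 and 11498 in Swiss 19, where the highest values of the arrays were 17148 and 14829, and what part the upper end of the range had in this fold was not tested. Normalized values gave a wider gap than the fold on scaled intensity. The log2 difference was 1.73 ± 0.097 (SE) from the 3 other preadipose lines (limma adjusted p = 9.2e-10) and 1.56 ± 0.10 from Swiss 5 and Swiss 22 (adjusted p = 4.6e-09). Against the spread of the 6 lines it was 1.82 ± 0.40 and did not pass (adjusted p = 0.452).

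A measure that needs no scaling showed the same order. On each array's own order of brightness the Acta2 probe set ranked 13 and 10 in Swiss 19, from 156 to 296 in the lines other than Swiss 3, and from 342 to 392 in Swiss 3. Actin transcripts are similar in sequence, and which of them this probe set detects was not checked here.

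Actg2 encodes smooth muscle gamma-actin, typical of gut muscle. It read 2795 and 3286 in Swiss 19 and 850, 809 and 786 in Swiss 9. In the other lines it lay between 159 and 341 in Swiss 8, 333 and 412 in Swiss 5, and 173 and 264 in Swiss 22. Swiss 3 read 154, 74.5 and 149.7, and the mean of Swiss 2, 123.1, was below background. Swiss 19 and, far below it, Swiss 9 thus stood apart with no overlap between their arrays and the rest. The excess of Swiss 19 over the other 6 lines was at least 9.57-fold, with Swiss 2 set to its background. On the log2 scale Swiss 19 exceeded the other preadipose lines by 2.06 (limma adjusted p = 1.9e-10) and Swiss 5 and Swiss 22 by 2.11 (adjusted p = 1.6e-10).

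Acta1, the skeletal muscle actin, had line means from 191.6 in Swiss 3 to 377.1 in Swiss 5, with 322.3 in Swiss 19. Actc1, the cardiac actin, ran from 41.1 in Swiss 3 to 167.7 in Swiss 2, with 83.9 in Swiss 19. Single arrays of Swiss 2 differed from 34.9 to 354.1 for Actc1, so its lines overlapped. Neither gene passed a test in any comparison, although both carry an exact box in the windows above.

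Of the myosin genes, the regulatory light chain Myl9 varied most. Myl9, whose phosphorylation switches smooth muscle myosin on, read 9847 and 9131 in Swiss 19. It read 4147, 3419 and 4193 in Swiss 9, 3642, 3501 and 3211 in Swiss 5, and 3204, 3109 and 3520.2 in Swiss 22. Swiss 8 read 2034, 2004 and 1522, Swiss 3 1941, 1736 and 1996, and Swiss 2 1124, 788 and 871. Swiss 19 was above and Swiss 2 below all other arrays, and Swiss 8 and Swiss 3 overlapped. The fold of Swiss 19 over the other 6 lines was 3.72. The log2 difference was 2.08 from the other preadipose lines (limma adjusted p = 8.7e-11) and 1.47 from Swiss 5 and Swiss 22 (adjusted p = 1.0e-08). The other 6 lines were themselves far apart, and against their spread the difference of 1.88 ± 0.53 (SE) did not pass (adjusted p = 0.598).

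The essential light chain Myl6 read 769 and 615 in Swiss 19, and its mean of 691.9 there was close to the 720.8 of Swiss 3, the highest line. The lowest line was Swiss 22, at 235.6. Myh9, the heavy chain of non-muscle myosin IIA, had means of 20714 in Swiss 19, from 16184 to 18722 in the other preadipose lines and from 11285 to 14369 in the non-adipogenic lines. Its 2 Swiss 19 arrays, at 20912 and 20515, lay above all others, the next being a Swiss 8 array at 20020.6. Myh10, the heavy chain of non-muscle myosin IIB, did not follow Myh9: its mean was 4491 in Swiss 19, in the middle of a range from 3372 in Swiss 3 to 5669.9 in Swiss 22.

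Myh11, the smooth muscle myosin heavy chain, is a marker of mature smooth muscle and was below background in all 7 lines, with line means from 10.8 to 42.0. Mylk, the kinase of the regulatory light chain, was highest in Swiss 19 at 317.6 ± 26.8 (SD, n = 2 arrays) and lay between 128.3 and 221.5 in the other lines. A Swiss 8 array at 320.8 overlapped with Swiss 19, and Mylk passed neither test of Swiss 19 (adjusted p = 0.0596 against the other preadipose lines and 0.0793 against Swiss 5 and Swiss 22).

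Among proteins that lie along the actin filament, Tagln, Cnn1 and Lmod1 gave the widest gaps of Swiss 19 over the other 6 lines on normalized values, while Smtn and Synpo2 were not higher there. Tagln encodes SM22 alpha, an early marker of smooth muscle. It read 13608 and 13661 in Swiss 19 and between 2894 and 6394 in Swiss 2, Swiss 8, Swiss 9, Swiss 5 and Swiss 22. Swiss 3 was lowest, at 2159, 2203 and 2696, so that both ends stood apart from all other arrays. The fold of Swiss 19 over the other 6 lines was 3.01. The log2 difference was 1.64 from the other preadipose lines (limma adjusted p = 7.2e-08) and 1.27 from Swiss 5 and Swiss 22 (adjusted p = 2.1e-06). Tagln2, a relative found in many cell types, did not follow it: its mean of 7786 in Swiss 19 lay below those of the other preadipose lines, from 7939 to 10745.

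Cnn1, calponin 1, marks differentiated smooth muscle and slows the myosin ATPase. It read 764.0 and 823 in Swiss 19 and 294.1, 229.9 and 56.4 in Swiss 9, the only other line above background. In Swiss 2, Swiss 8, Swiss 3, Swiss 5 and Swiss 22 the line means lay between 18.04 and 75.5, all below background. Single arrays exceeded their own background in Swiss 8, at 110.7, and in Swiss 22, at 82.5 and 131.4, and none did in Swiss 5. The fold over the other 6 lines was at least 6.68, with the lines below background set to it. In log2 terms the gap was 1.13 to the other preadipose lines (limma adjusted p = 1.2e-06) and 1.25 to Swiss 5 and Swiss 22 (adjusted p = 5.1e-07).

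Cnn2 and Cnn3, calponins of non-muscle cells, had smaller gaps. Cnn2 averaged 15345 in Swiss 19 and from 9860.0 to 12823 in the other lines, and Cnn3 13282 against 8531 to 11362. Neither had an array of another line above those of Swiss 19. Lmod1, leiomodin 1, which nucleates actin filaments in smooth muscle, was above background in Swiss 19 alone, at 371.5 and 512.7. Of the other 18 arrays 2 exceeded their own background, 1 of Swiss 9 at 174.5 and 1 of Swiss 22 at 86.6. Its fold over the other 6 lines was at least 4.39.

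The tropomyosins, which wind along actin and set which proteins reach it, differed from one another. Tpm2, the form most tied to smooth muscle, averaged 9440.1 in Swiss 19 and from 4044 in Swiss 3 to 7571 in Swiss 9. Its log2 difference of 0.60 from the other preadipose lines was no wider than those of Tpm1 (0.85), Cnn2 (0.66) and Cnn3 (0.64). Tpm1 averaged 24100.0 in Swiss 19, from 20596 to 22480 in the non-adipogenic lines and only from 12753 to 17380 in the other preadipose lines. Tpm4 averaged 25768 in Swiss 19, 26543 in Swiss 8 and only 10821 in Swiss 3. On normalized values the Tpm4 order of Swiss 19 and Swiss 8 was the reverse. Tpm3 was not highest in Swiss 19, at 8932 in Swiss 19, 7971 in Swiss 3 and up to 12401 in Swiss 5.

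Cald1, caldesmon, an inhibitor of actin-activated myosin, averaged 21587 in Swiss 19 and 22039 in Swiss 9, with 12436 in Swiss 2 as the lowest. Smtn, smoothelin, known from contractile smooth muscle, was lowest in Swiss 19, at 327.7 and 255.4. Line means elsewhere ran from 376.7 in Swiss 8 to 529.7 in Swiss 9, and a Swiss 3 array at 320.4 overlapped with Swiss 19. Synpo2, synaptopodin 2, was above background in Swiss 8 alone, at a mean of 108.4, and its mean in Swiss 19 was 33.8.

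**Figure D3:**
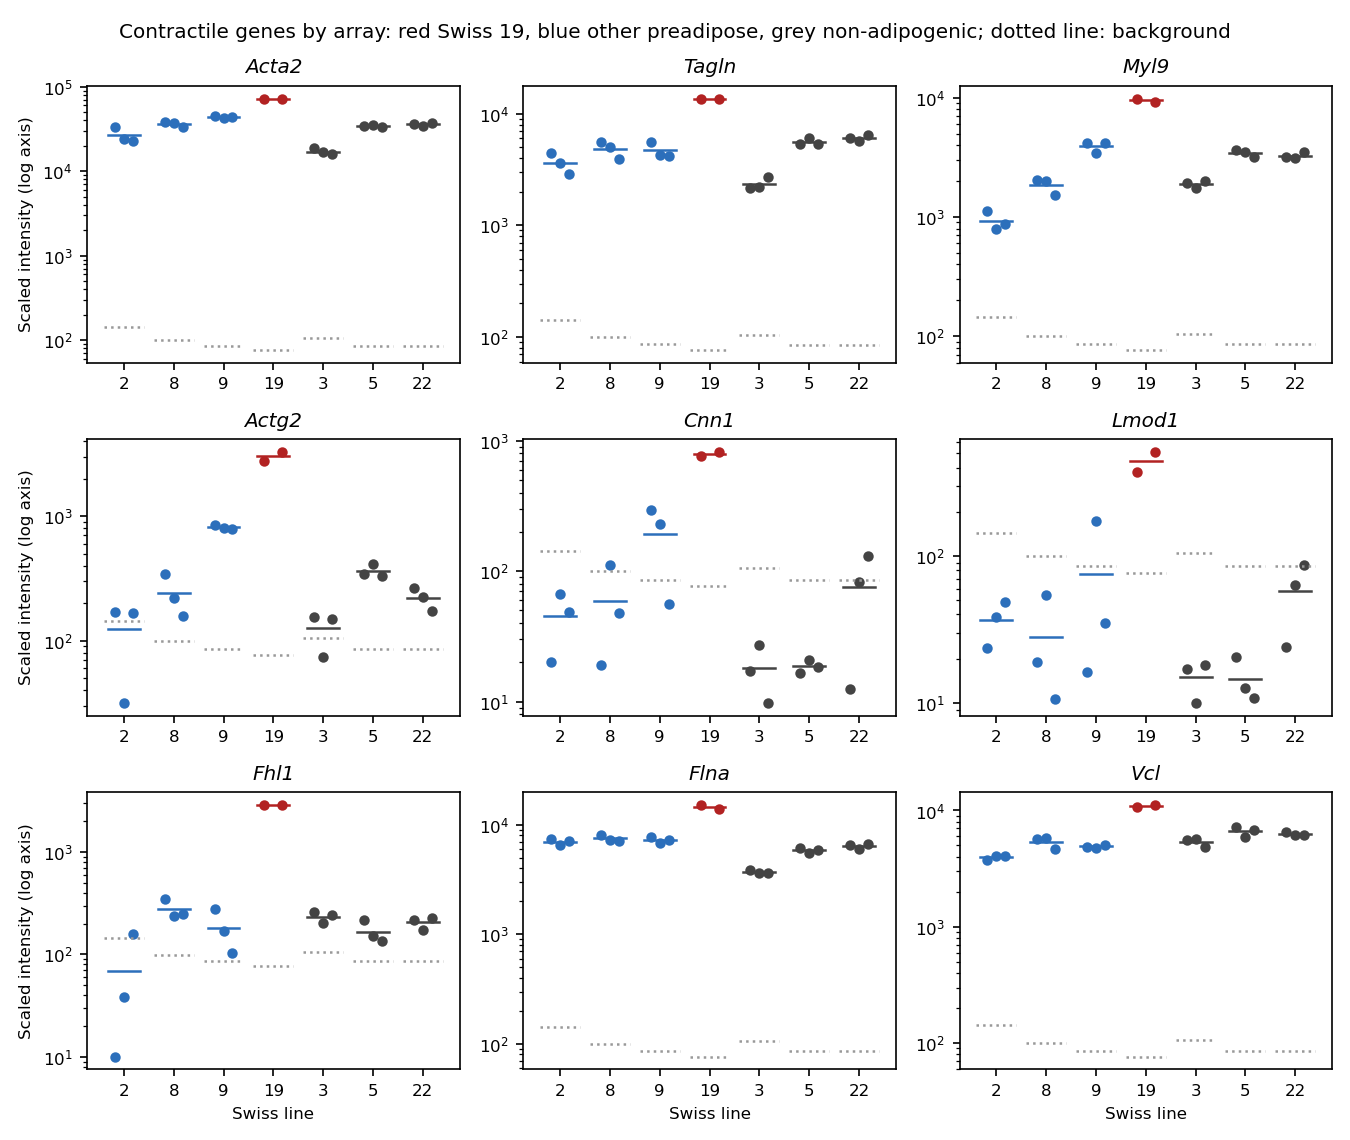
Scaled intensity (log axis) of 9 genes on each array (points), with the line mean (bar) and the line's background (dotted), for each Swiss line on the horizontal axis: Swiss 19 in red, other preadipose lines in blue, non-adipogenic lines in grey. The Swiss 19 points lie above all others in every panel, and for Cnn1 and Lmod1 most other points lie below the dotted line.

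Of the proteins that cross-link actin or tie it to focal adhesions, Flna and Vcl had the widest gaps of Swiss 19. Flna, filamin A, which joins filaments into networks, read 15158 and 13972 in Swiss 19 and 3875, 3617 and 3599 in Swiss 3. The other 15 arrays lay between 5530 and 8151, so that Swiss 19 and Swiss 3 both stood apart. The fold over the other 6 lines was 2.32, and the log2 difference was 1.08 from the other preadipose lines (limma adjusted p = 1.4e-08) and 1.30 from Swiss 5 and Swiss 22 (adjusted p = 1.5e-09). Vcl, vinculin, which couples talin to actin, read 10752 and 11141 in Swiss 19 and between 3786 and 7159.7 on the other arrays. Its fold was 2.02, with a log2 difference of 1.21 from the other preadipose lines (limma adjusted p = 1.2e-08).

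Tln1, talin, which activates integrins, averaged 4689 in Swiss 19 and from 2382 in Swiss 3 to 3869 in Swiss 2. Flnc, the filamin typical of muscle, averaged 3009 in Swiss 19 and from 1562 to 2173 elsewhere. Actn1 and Actn4, the non-muscle alpha-actinins, averaged 9073 and 16606 in Swiss 19 and had their lowest means in Swiss 3, at 4651 and 8043. In both the margin over the next line was small, with 8252 for Actn1 in Swiss 9 and 16477 for Actn4 in Swiss 8. Zyx, zyxin, a focal adhesion protein that senses tension, was highest in Swiss 5, at 12892, and lowest in Swiss 3, at 5814.0, with 10385 in Swiss 19. Pdlim7, an adaptor of actin and kinases, averaged 1558 in Swiss 19 and from 779.7 to 1071 elsewhere. Ldb3, a Z-disc protein of striated muscle, averaged 135.6 in Swiss 19, within a range from 80.5 to 215.4.

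Among the LIM domain proteins, Fhl1 and Csrp1 were higher in Swiss 19 and Csrp2 was lower. Fhl1, a LIM protein abundant in muscle, read 2851 and 2874 in Swiss 19. It read 346.2, 234.9 and 249.3 in Swiss 8, 256.7, 201.2 and 242.5 in Swiss 3, 216.4, 174.8 and 225.1 in Swiss 22, and 216.0, 150.6 and 134.4 in Swiss 5. Swiss 9 read 275.2, 168.3 and 103.1, and Swiss 2 10.1, 38.3 and 158.7, with a mean below background. The other 6 lines thus formed a single low group with overlapping arrays, and Swiss 19 stood at least 14.2-fold above their mean. The log2 difference was 2.33 from the other preadipose lines (limma adjusted p = 3.1e-11) and 2.25 from Swiss 5 and Swiss 22 (adjusted p = 6.0e-11).

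Fhl1 was the only gene of all 18193 that passed when Swiss 19 was set against the spread of the other 6 lines, which is 0.0055% of all genes higher and 0% lower. The difference was 2.29 ± 0.17 (SE, limma adjusted p = 0.0462). The adjusted p was between 0.00648 (without Swiss 2) and 0.310 (without Swiss 5) with a line left out, and it missed the threshold when Swiss 8, Swiss 9, Swiss 3, Swiss 5 or Swiss 22 was the line left out. Leaving out a single array lost it in 4 cases, those of Swiss 2 replicate 3 (adjusted p = 0.146), Swiss 8 replicates 2 and 3 and Swiss 9 replicate 3. A further Fhl1 probe set did not follow the one used, with 85.3 in Swiss 19, 76.4 to 245.7 in the other lines and a difference of -0.13. Probe sets were chosen by mean brightness over all arrays, those of Swiss 19 included. Outside Swiss 19 the line means of the one used, 69.0 to 276.8, overlapped with those of the further one. The choice may thus have rested on the Swiss 19 values that were then tested. The fold and the tests of Fhl1 make no allowance for this.

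At an unadjusted p below 0.05 in this test 21 of the 40 members passed, 20 of them higher in Swiss 19, where 5.96% of all genes passed. The median difference was 0.51 over the 40 members and -0.02 over all genes, and 33 members were positive. Csrp1, a LIM protein of smooth muscle, read 5792 and 5403 in Swiss 19 and between 1332 and 3349 on the other arrays, a fold of 2.17. Its log2 difference from Swiss 5 and Swiss 22 was 0.88 ± 0.095 (SE, limma adjusted p = 3.1e-06). Csrp2, its relative known from smooth muscle precursors, read 334.5 and 429.0 in Swiss 19 and 1384, 1681 and 1479.8 in Swiss 9. Swiss 19 was 2.24-fold below the mean of the other 6 lines, though a Swiss 5 array at 396.8 overlapped with it. Fhl2, a LIM protein that binds serum response factor, averaged 1405 in Swiss 19, within a range from 968 to 1753. Fhl3 was above background in Swiss 9 and Swiss 19 only, with arrays from 47.2 to 326.3 in these lines.

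Of the intermediate filaments, Vim, vimentin, typical of fibroblasts, ran opposite ways on the scales used. On scaled intensity Swiss 19, at 65165 and 65301, lay below the other preadipose lines, whose means were from 88223 to 101587, and above the non-adipogenic lines, from 56323 to 59771. On quantile-normalized values Swiss 19 was the highest line. The highest deposited values of an array were between 5551 and 8281 on the dim arrays and between 14268 and 17148 on the bright ones. Vim read 11455 and 10381 in Swiss 19 before scaling, and what part the upper end of the range had in this order was not tested. Des, desmin of muscle cells, was above background in all line means, with 318.0 in Swiss 19, but its arrays ranged from 166.7 to 469.3 there and from 31.9 to 331.9 elsewhere. Myocd, myocardin, the smooth muscle coactivator of serum response factor, was above background in Swiss 9 alone, at 111.7, and averaged 45.1 in Swiss 19.

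Against Swiss 2, Swiss 8 and Swiss 9, 23 of the 40 members were called higher in Swiss 19, where 6.65% of all genes were, and 2 lower, where 5.64% were (limma, error from arrays, adjusted p below 0.05). The 23 were Acta2, Actg2, Tagln, Cnn1, Cnn2, Cnn3, Myl6, Myl9, Myh9, Tpm1, Tpm2, Tpm4, Cald1, Lmod1, Vcl, Tln1, Actn1, Actn4, Flna, Flnc, Fhl1, Csrp1 and Pdlim7. The median difference was 0.41 over the members and -0.02 over all genes. Against Swiss 5 and Swiss 22, 24 members were called higher, where 5.97% of all genes were, and 3 lower, where 5.61% were, with a median of 0.42 against -0.02. The additional higher gene in this comparison was Vim, at 0.47. Both comparisons use the same Swiss 19 arrays and so are not independent.

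The lower calls are given although the naming rule did not take them. Csrp2 differed by -0.88 from the other preadipose lines and by -0.33 from Swiss 5 and Swiss 22 (limma adjusted p = 3.9e-06 and 0.034), and Smtn by -0.28 and -0.32 (adjusted p = 0.0444 and 0.0272). Tpm3 was called against Swiss 5 and Swiss 22 only, at -0.27 (adjusted p = 0.015). These depended on the scaling: against the 6 lines, Csrp2 was -0.60 as normalized and 0.25 without normalization, Smtn -0.27 and 0.42, and Tpm3 -0.10 and 1.28. Without normalization the median of all genes itself moved to 0.59, from -0.02.

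For the genes named next, which had wide gaps, arrays with spikes at a like level gave sizes close to those over all arrays. Swiss 19 was set against the bright arrays alone, those of Swiss 5, Swiss 22 and 1 of Swiss 3. The log2 difference was then 2.23 for Fhl1, 2.23 for Actg2, 1.94 for Acta2, 1.66 for Myl9, 1.58 for Tagln, 1.51 for Flna, 1.29 for Cnn1, 1.04 for Csrp1, 0.92 for Vcl and 0.85 for Lmod1. The corresponding values against all 6 lines were 2.29, 2.16, 1.82, 1.88, 1.64, 1.28, 1.21, 1.02, 1.04 and 0.84. Some members with smaller gaps moved more for their size. Tpm1 was 0.28 against the bright arrays and 0.57 against all 6 lines, Csrp2 -0.32 and -0.60, and Myh9 0.84 and 0.60. The bright arrays held no other preadipose line, and the part of brightness was not tested.

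**Figure D4:**
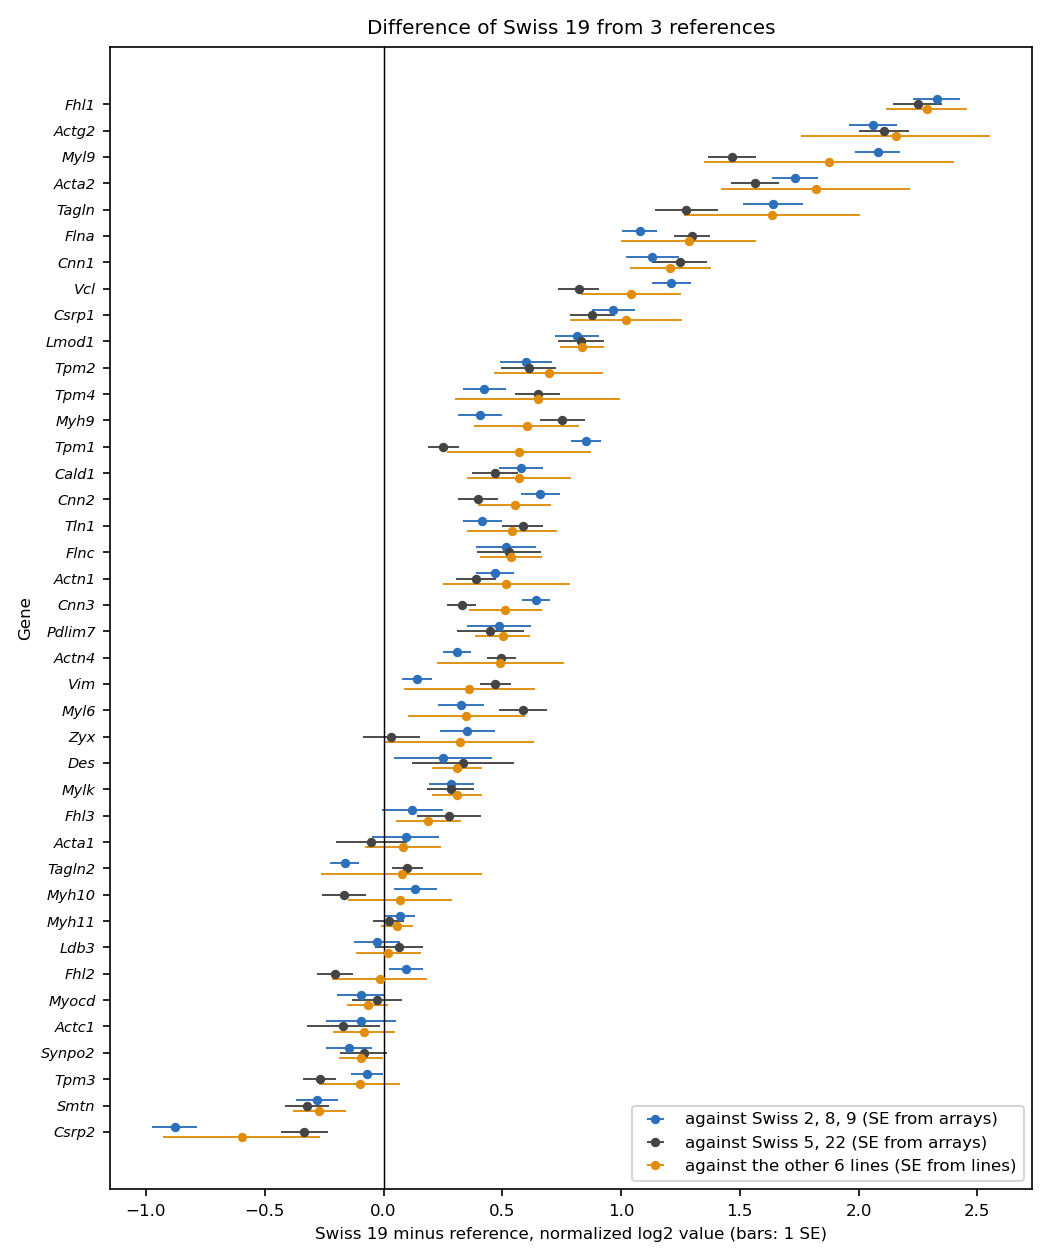
Difference of Swiss 19 from the other preadipose lines (blue), from Swiss 5 and Swiss 22 (grey) and from the other 6 lines (orange) in normalized log2 value (horizontal axis) for the 40 genes, with bars of 1 standard error, taken from arrays for blue and grey and from lines for orange. Fhl1, Actg2, Myl9, Acta2 and Tagln lie farthest right and Csrp2 farthest left, and the orange bars are the widest for most genes.

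Members with and without the exact CArG box were called higher in Swiss 19. Of the 9 members with it, 5 were called higher than in the other preadipose lines, the Fhl1, Myl9, Vcl, Cnn2 and Myl6 of the windows above. Of the 26 members without it in the window, 16 were called higher. Of all genes, 6.65% were called higher in this comparison. The shares called among all genes with and without the box were not taken. These counts describe the window and not the gene's other control regions.

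Different probe sets of a gene mostly went the same way. Of 14 members with several probe sets above background in all lines, 12 had all of them on the same side in Swiss 19 against the other 6 lines. For Myh9 the 5 probe sets differed by 0.20 to 1.04, and for Vcl both were positive, at 1.04 and 0.56. The exceptions were Cnn3, with 1 of 6 probe sets at -0.0058, and Actn1, with -0.20 on a probe set beside 0.52 on the one used. A Tpm1 probe set other than the one used was high in Swiss 19 and Swiss 3 alike, at 1612 and 1752, while the one used read 24100.0 and 20596.

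The preadipose and non-adipogenic classes did not differ for any member by the adjusted test. With the line as the replicate, 0 of 40 members were called (limma, 4 against 3 lines), where 1.53% of all genes were, and 6 had an unadjusted p below 0.05, against 15.6% of all genes. The lowest p values were those of Myh9 (0.50 ± 0.12 SE, adjusted p = 0.0977), Vim (0.48 ± 0.12, adjusted p = 0.0997) and Actn4 (0.44 ± 0.15, adjusted p = 0.221). Myh9 averaged 18323 ± 1904 (SD, n = 4 lines) in preadipose and 12634 ± 1578 (SD, n = 3 lines) in non-adipogenic lines. All 3 differences turned negative when arrays were centred on their medians instead.

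For 5 members the classes were separate, each preadipose line mean lying above each non-adipogenic one (Tagln2, Myh9, Vim, Actn4 and Flna), on normalized values, where 6.39% of all genes did so, and for 0 below, where 7.53% did. On scaled intensity Tagln2 overlapped, since the 7968 of Swiss 5 exceeded the 7786 of Swiss 19 and the 7939 of Swiss 2. In all 5, Swiss 3 was the lowest line on normalized values. Acta2 and Fhl1, which set Swiss 19 apart, overlapped between the classes, whereas Flna, Myh9 and Actn4 had both Swiss 19 arrays highest and separate classes on normalized values. For Acta2 the class means were 44603 ± 19398 and 29088 ± 10432, and for Fhl1 847.7 ± 1346 and 201.9 ± 33.4.

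Swiss 3 was the low end of the series for these genes. All 3 Swiss 3 arrays lay below all 17 other arrays for 10 of the 40 members (Acta2, Tagln, Tagln2, Tpm2, Tpm4, Vim, Zyx, Actn4, Flna and Csrp1), where 4.14% of all genes did so. The same 10 were found on scaled intensity, and for none of the 40 did all Swiss 3 arrays lie above. Tagln2 read 4007, 4754 and 4517 in Swiss 3 and at least 6830.4 elsewhere, so that this gene marked Swiss 3 and not Swiss 19. Markers of dividing cells were also low in Swiss 3, with all 6 above background and a summed scaled intensity of 16934, while Swiss 19 reached 32358 and Swiss 8 reached 48589. The part of this in the low values was not tested.

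Of the markers of other cell types, those of pericytes, which share contractile genes, were above background for 5 of 8 in Swiss 19 and for 2 to 6 of 8 in the other lines. Their summed level was highest in Swiss 19, at 1602 against 1099 to 1422, and most of it was Notch3, a receptor of mural cells, at 1062.5 in Swiss 19 and 462.8 to 775.0 elsewhere. Notch3 was the 1 pericyte marker called, higher by 0.61 than in the other preadipose lines and by 0.36 than in Swiss 5 and Swiss 22 (limma adjusted p = 3.2e-04 and 0.0242). Rgs5, a defining marker, was near background, at 90.5 in Swiss 19 and 115.1 to 165.3 elsewhere, and was not called. Adipocyte markers summed to 1807.5 in Swiss 19 and from 373.9 to 1634 elsewhere, with 1 of 4 measured above background in Swiss 19. That gene was Fabp4, a fatty acid carrier, at 1767.4 in Swiss 19, 279.9 to 334.3 in the other preadipose lines and 834.6 to 1359 in the non-adipogenic lines. Fabp4 was higher in Swiss 19 by 1.47 and 0.62 in the same comparisons (limma adjusted p = 5.7e-07 and 0.00597), while Adipoq, the fat cell hormone adiponectin, was below background there. The summed heart muscle markers were 927.5 in Swiss 19, within the range of 741.5 to 1029.9, and Gata4, a heart transcription factor, was the 1 called, at 0.30 above the other preadipose lines (limma adjusted p = 0.0197). The summed fibroblast markers were 264361 in Swiss 19, within the range of 185149 to 270768. Of the 10, 8 were called higher and 1 lower than in the other preadipose lines, and 6 higher and 2 lower than in Swiss 5 and Swiss 22. Col1a1, Col1a2, Col3a1 and Col5a1, which encode collagens, Fn1, fibronectin, and Pdgfrb, a growth factor receptor that pericytes carry too, were higher in both on normalized values. On scaled intensity Swiss 19 was not the highest line for Col1a1, at 67515 against 73781 in Swiss 2. Nor was it for Col1a2, at 65610 against 71266 in Swiss 2 and 68703 in Swiss 9. Col3a1 differed by 0.93 and 1.14 and Pdgfrb by 1.10 and 0.86 (limma adjusted p at most 1.3e-05). Thy1, a surface protein of fibroblasts, was lower in both, by -0.53 and -0.65. Lum was lower than in Swiss 5 and Swiss 22 by -1.21 (limma adjusted p = 8.1e-08) and was below background in Swiss 19, at 75.1. Dcn and Sparc were called higher against the other preadipose lines only (0.94 and 0.45). The part of any of these in the contractile gene levels was not tested.

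Several genes of actin turnover, focal adhesion and serum response that are not members were called in Swiss 19, in both directions. Ccn2, connective tissue growth factor, averaged 1956 in Swiss 19 and between 264.9 and 803.7 in the other lines, with differences of 1.28 from the other preadipose lines and 1.16 from Swiss 5 and Swiss 22 (limma adjusted p = 3.0e-05 and 1.2e-04). Ankrd1, a muscle ankyrin protein, was 1.12 above the other preadipose lines, but Swiss 3, Swiss 5 and Swiss 22, at 1111 to 1467, were above Swiss 19, at 1061. Ccn1, a matricellular relative of Ccn2, was 1.07 above the other preadipose lines, and was highest in Swiss 5, at 4734. Ezr, ezrin, which links actin to the membrane, was lower by the same comparison, at -0.94. Against Swiss 5 and Swiss 22 the genes called higher beside Ccn2 included Lpp, a partner of zyxin (0.81), Ppp1r12a, the targeting subunit of myosin phosphatase (0.80), and Msn, moesin (0.75). Genes called lower there, named outside the rule, included Pxn, paxillin (-0.58), and the serum response gene Egr1 (-0.54). Egr1 was also called lower against the other preadipose lines (-0.69).

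The regulators themselves are named outside the rule. Srf, serum response factor, averaged 809 in Swiss 19, within a range from 535.6 in Swiss 2 to 920.7 in Swiss 3, and was called in neither comparison. Mrtfa, a myocardin-related coactivator, averaged 2863 in Swiss 19 and up to 2507 in Swiss 22, and was called against the other preadipose lines only (0.50). Mrtfb, its relative, averaged 2013 in Swiss 19 and from 1266 to 1508 elsewhere, with differences of 0.43 from the other preadipose lines and 0.36 from Swiss 5 and Swiss 22. Between the classes, Pxn (-0.52, limma adjusted p = 0.0109), Prkg1 (-0.76, adjusted p = 0.0367) and Parva (-0.70, adjusted p = 0.0467) were lower in preadipose lines. Pxn encodes the focal adhesion scaffold paxillin, Prkg1 a kinase that relaxes smooth muscle, and Parva the adhesion protein alpha-parvin.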

How the data were processed

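RNA of 7 clonal lines was measured on 20 one-colour 3' expression arrays. The deposited values are linear intensity values of 45101 probe sets, 64 of them controls, and how the authors summarized and scaled them is not given in the sources used here. The deposited table was used with platform annotation; 34945 probe sets had 1 symbol and gave 18193 genes. The members and the other gene lists were chosen with earlier results of these data known, and support nothing by their choice.

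Values were taken as log2(intensity + 32) and quantile-normalized. Line means (arrays averaged) were fitted for the classes and for Swiss 19 against the other 6 lines, and all 20 arrays with 1 term per line for the other comparisons, with limma 3.58.1 in R 4.3.3 and Benjamini-Hochberg adjustment over all genes at 0.05. Where Swiss 19 stands alone, its variance is taken to equal that of the other lines. Scaled intensity used a mean trimmed by 2% at each end, and background was the 95th percentile of 27 unspiked controls. No dim genes were left out. The number of arrays limits the precision. The fits were checked on simulated data.

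The naming rule gives all 40 members with levels. Differences with adjusted p are given for up to 8 called members of a comparison, or with none called for the 3 with the lowest p, and for up to 4 called genes of a list of related pathway genes, whose counts as a list are not reported here. Alternatives were the pseudocount, the scaling, the choice of probe set, the replicate block, brightness, and leaving out arrays and lines. Brightness was split at the widest gap in 9 hybridization spikes.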

Additional observations from a re-analysis of the deposited data

Results flagged for a closer look

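For 5 of the 40 members (12.5%), the mean of 1 preadipose line lay far from those of the other 3, by the gap to the nearest line as a share of the range, beyond the critical value of Dixon's test, on normalized values. Among all genes 1038 (5.71%) did so, and chance gives such a gap in about 1 in 20 groups. Swiss 19 was the far line, on the high side, for Tagln (0.8293), Lmod1 (0.8394) and Flna (0.9203). For Lmod1 the other 3 preadipose lines were below background, at 36.9, 28.0 and 75.2, so its gap sets a detected line against background signal. Swiss 2 was the far line, on the low side, for Acta1 (0.9037), at a scaled intensity of 222.6, and for Vim (0.8379), at 88223. The Swiss 2 arrays of Acta1 were wide apart, at 167.8, 101.1 and 398.8. Acta1 was not called among the lines (limma moderated F test, adjusted p = 0.199). On scaled intensity Swiss 2 was not the lowest preadipose line for Vim, since Swiss 19 lay at 65233.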

How the results depend on the processing

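In the comparisons with error from arrays, the excess of Swiss 19 kept its direction in every alternative run for Acta2, Actg2, Cnn1, Fhl1, Flna, Myl9 and Tagln in both, for Vcl against the other preadipose lines and for Csrp1 against Swiss 5 and Swiss 22. Csrp2 and Smtn, lower in Swiss 19 as normalized, did not keep theirs, since all 40 members were positive against the other preadipose lines without normalization. The count of called members changed by less than 1.5 times except in the following cases. Against Swiss 2, Swiss 8 and Swiss 9 the count of 25 became 38 without normalization between arrays, where the median of all genes moved to 0.80. This count moved less with median centring, to 35, and with arrays scaled before the pseudocount, an alternative added after seeing the data, to 20. The added scaling gave 19 against Swiss 5 and Swiss 22. The shares of all genes called under these alternatives are not given here, so these counts alone do not set the members apart.

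Against the other 6 lines the call of Fhl1 was lost, leaving 0 members, with a pseudocount of 16, without normalization, with the mean of all probe sets, with Swiss 8, Swiss 9, Swiss 3, Swiss 5 or Swiss 22 left out, with brightness as a block, in the bright arrays alone and with the added scaling. With an array left out the count was 0 to 1. The adjusted p of Fhl1 in all alternatives ran from 0.00648 to 0.374, at differences from 1.08 to 3.86.

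Between the classes 1 member was called with the mean of all probe sets (Vim, adjusted p = 0.0212), without Swiss 19 (Tpm1 at -0.57, adjusted p = 0.0399), with brightness as a block (Flna, adjusted p = 0.0447) and in the dim arrays alone (Flna, adjusted p = 0.0440). Median centring turned Myh9 to -0.079, Vim to -0.057 and Actn4 to -0.13, and no normalization turned them to -0.21, -0.19 and -0.26. The cause was not tested.

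With the replicate number as a block (replicate block), 1 member was called against the other 6 lines (Fhl1, adjusted p = 0.0470), 25 and 26 in the comparisons with error from arrays and 0 between the classes. The numbers did not pair the arrays: same-numbered arrays of different lines had a median correlation of deviations of 0.00017, between -0.034 and 0.048 over 57 pairs. Signal near background limits Cnn1, Lmod1, Fhl3, Synpo2, Myocd and Myh11.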
